A study of Mus musculus with 40 samples.

Results

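Transcript levels of 39 named synaptic genes were followed here in the cortex, and the names matched 40 of the 43346 gene rows of the count table. The members were taken by gene name from the classes of presynaptic release, postsynaptic density, glutamate receptors and adhesion, and the rule that names them uses no measured value. *Pclo* matched 2 rows, its protein-coding gene and a lincRNA row that carries the same name and is reported apart. All 40 rows passed the filter on low counts, at least 10 counts in at least 4 libraries, which 21253 genes passed.

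At a chemical synapse the presynaptic terminal loads vesicles with glutamate, docks them at the active zone and fuses them with the membrane when calcium enters. The released glutamate opens AMPA and NMDA receptors, which scaffold proteins hold in the postsynaptic density, and neurexins and neuroligins bridge the cleft between both sides. Loss of synapses is a known feature of Alzheimer's disease and of mice that carry amyloid.

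Bulk RNA was sequenced from the cortex of 40 mice in 4 groups of 10, each with 5 females and 5 males. The knock-in allele was *Trem2* H157Y, a missense change in a microglial receptor introduced with CRISPR/Cas9, and mice were WT or homozygous (Hom). The non-amyloid cohort was 6 months old. The amyloid cohort was 8.5 months old and carried the 5xFAD transgenes, which include mutant human *APP*, under the neuronal *Thy1* promoter in both genotypes. The cohorts therefore differed in the transgenes and in age, and the effects of these cannot be told apart. The knock-in line descended from 1 founder. Each library is named by its group and the number in its sample label, from 1 to 40, and nothing in the labels states that libraries shared an animal.

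Total counts ranged from 41646271 to 105903846 per library with a median of 77193387. Levels are given as CPM, a gene's share of the library's counts on the usual sequencing-depth scale, after trimmed mean of M-values (TMM) scaling. Mouse *Thy1*, which shares its promoter with the transgenes, ranged from 497.6 to 763.3 CPM over the non-amyloid libraries and from 1206 to 2510 CPM over the amyloid libraries, with no overlap. *Trem2* itself carries a single base change in Hom mice, so its level is no check of genotype. Cortical origin was read from 15 markers of excitatory cortical layers, whose summed level was 866.8 to 1279 CPM over all libraries. Striatal markers were summed to between 778.9 and 3049 CPM and choroid plexus markers to between 9.49 and 682.7 CPM, and the part of these in the results was not tested. The striatal sum of 3049 CPM belonged to non-amyloid Hom replicate 35 alone, and the next highest was 1928 CPM in non-amyloid WT replicate 31.

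Some libraries stood apart from the rest. Amyloid Hom replicate 19, a female, had the lowest total. It placed 0.616% of its counts on 488 genes that a gene of the opposite strand, at least 10 times as abundant, covers over at least 50% of their exonic bases, against 0.0144% to 0.0191% in the other 39 libraries. It held the lowest value of its group for 12 of the 40 rows and the lowest of all libraries for 6, among them *Vamp2*, *Slc17a7* and *Syn1*. Amyloid WT replicates 5 and 12, both female, had summed hippocampal marker levels of 448.1 and 427.2 CPM, against at most 321.1 CPM in the rest of the series. The same pair had low sums for excitatory cortical layer markers, 938.2 and 866.8 CPM, against at least 1024 CPM in the other 8 amyloid WT libraries. They were the highest pair of their group for 8 rows, including *Syn2*, *Slc17a7* and *Camk2b*, and the lowest pair for 11 rows, including *Rims1*, *Homer1* and 3 AMPA receptor subunits. The share of all genes at such extremes in replicates 5, 12 and 19 was not counted. Nothing particular to the synaptic rows is therefore read from these counts. Some of the results that rest on these libraries are given with and without them.

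The first question was whether the synaptic genes differed between the cohorts. Of the 40 rows, *Rims1* rose and *Camk2b* fell in the Hom mice of the amyloid cohort, and no row passed both thresholds in the WT mice. A gene was called at a Benjamini-Hochberg adjusted p under 0.05 in edgeR's quasi-likelihood test together with an absolute log2 fold change over 0.25. By this rule 6.56% of all genes tested were called between the cohorts in Hom mice, beside 2 of the 40 rows (5%), and 7.95% in WT mice, beside 0 of 40. By adjusted p alone, 7.53% of genes passed in Hom mice and 9.49% in WT mice, beside 2 of 40 rows in each genotype. Without adjustment, a p under 0.05 was reached by 22.6% of all genes and 16 of 40 rows in Hom mice and by 20.9% and 7 of 40 in WT mice. The count of 16 was 11 to 21 without 1 library and 21 with limma-voom, and with a per-library trend on transcript GC content removed it was 9 rows, beside 4642 of 21253 genes. Of the 16 rows 12 had a lower and 4 a higher level with amyloid, and of the 7 rows 2 and 5. DESeq2 called 1 row in Hom mice and none in WT mice, and limma-voom called 2 and 1. At adjusted p alone 4 and 3 rows passed with DESeq2 and 9 and 3 with limma-voom. The median log2 fold change over the rows was -0.057 in Hom mice and -0.007 in WT mice, where all genes had medians of 0.027 and 0.002. In bulk tissue fewer neurons and less RNA per neuron cannot be told apart.

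The promoters of *Rims1*, *Syn2* and *Camk2b* are shown because these are the members that passed the adjusted p between the cohorts. Each is the 250 bases before the RefSeq start on GRCm38.p6, written 5′ to 3′ on the strand of the gene, with GC boxes (GGGCGG on either strand) in capitals. They lie at chr1:22806159-22806408 on the minus strand for *Rims1*, chr6:115134652-115134901 on the plus strand for *Syn2* and chr11:6065749-6065998 on the minus strand for *Camk2b*. The *Camk2b* window lies inside the gene as the count table places it, which ends at 6066362. RefSeq lists 2 promoters for *Syn2*, and the 1 nearest the gene's start in the count table is shown.
Rims1: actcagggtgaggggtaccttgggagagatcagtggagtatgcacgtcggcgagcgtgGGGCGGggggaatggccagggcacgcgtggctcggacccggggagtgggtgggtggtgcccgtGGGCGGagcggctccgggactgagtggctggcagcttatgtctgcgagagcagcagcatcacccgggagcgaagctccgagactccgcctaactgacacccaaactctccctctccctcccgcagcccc
Syn2: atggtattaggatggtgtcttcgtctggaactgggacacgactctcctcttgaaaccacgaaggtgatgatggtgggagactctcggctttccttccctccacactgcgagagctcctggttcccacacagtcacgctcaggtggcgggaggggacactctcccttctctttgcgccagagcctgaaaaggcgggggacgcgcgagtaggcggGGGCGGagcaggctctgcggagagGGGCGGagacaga
Camk2b: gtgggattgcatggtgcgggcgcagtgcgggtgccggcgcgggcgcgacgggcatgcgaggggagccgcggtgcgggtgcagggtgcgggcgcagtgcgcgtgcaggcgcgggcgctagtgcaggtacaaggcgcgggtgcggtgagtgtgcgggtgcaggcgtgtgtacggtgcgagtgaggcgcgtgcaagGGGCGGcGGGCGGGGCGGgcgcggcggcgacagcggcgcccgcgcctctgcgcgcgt
*Rims1* held 2 GC boxes, *Syn2* held 2 and *Camk2b* held 3, of which the last 2 share a base. None of the 3 held a TATA box (TATAAA) or a full cAMP response element (TGACGTCA). A GC box was found in 32.7% of the 32851 promoters of the RefSeq table and in 38.6% of the 44 promoters of the 28 members that the table holds. A TATA box was in 12.4% of all promoters and 6.82% of those of the members, and a cAMP response element in 1.55% and 2.27%, the latter in *Syn1* alone. These matches are descriptions of letters in a window.

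*Rims1* encodes an active zone scaffold that tethers calcium channels and primes vesicles, and the count table places it at chr1:22286251-22805724. Its level ran from 255.6 to 319.1 CPM in non-amyloid WT mice (median 275.2) and from 238.3 to 392.9 CPM in amyloid WT mice (median 326.6). In Hom mice it ran from 245.8 to 317.7 CPM without amyloid (median 289.6) and from 281.5 to 392.4 CPM with amyloid (median 343.5). In each genotype 7 of the 10 amyloid libraries lay above all 10 non-amyloid libraries. The log2 fold change was 0.26 in Hom mice (SE 0.062, 95% confidence interval 0.13 to 0.38, adjusted p = 0.00572). In WT mice it was 0.235 (SE 0.062, interval 0.11 to 0.36, adjusted p = 0.00918), short of the fold threshold. The difference between the genotypes in this effect was 0.023 (interval -0.156 to 0.20, adjusted p = 0.93). In WT mice the lowest value of all 40 libraries belonged to replicate 12, and without replicates 5 and 12 the WT fold change was 0.295 (adjusted p = 2.1e-04). Without replicate 12 alone, or non-amyloid WT replicate 38 alone, it was 0.28 or 0.26 and passed both thresholds. In Hom mice 7 libraries, each left out alone, brought *Rims1* under the fold threshold (lowest 0.233), while its adjusted p stayed at or below 0.0159. These were amyloid Hom replicates 3, 16 and 40, non-amyloid Hom replicates 11, 21 and 35 and amyloid WT replicate 32.

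*Camk2b* encodes the beta subunit of calcium/calmodulin-dependent kinase II, a main signalling enzyme of the postsynaptic density, and lies at chr11:5969644-6066362. It ran from 653.2 to 892.6 CPM in non-amyloid Hom mice (median 812.2) and from 558.1 to 757.4 CPM in amyloid Hom mice (median 645.4). The 892.6 CPM belonged to non-amyloid Hom replicate 35, which had the highest striatal marker sum of all libraries. Of the amyloid Hom libraries 7 of 10 lay below every non-amyloid Hom library. *Camk2b* fell by 0.255 on the log2 scale (SE 0.074, interval -0.404 to -0.107, adjusted p = 0.0239). In WT mice it ran from 562.4 to 833.4 CPM without amyloid and from 528.3 to 833.6 CPM with amyloid, and the ranges overlapped almost entirely. The WT log2 fold change was -0.066 (interval -0.215 to 0.082, adjusted p = 0.695). The difference between the genotypes was -0.189 (interval -0.399 to 0.021, adjusted p = 0.516). Leaving out amyloid Hom replicate 19 kept both calls (*Rims1* 0.255, *Camk2b* -0.255). Without any 1 of amyloid Hom replicates 16 and 39 or non-amyloid Hom replicates 14, 20, 21, 35 and 37 the Hom fold change lay between -0.248 and -0.232, short of the fold threshold, and without amyloid Hom replicate 16 or non-amyloid Hom replicate 35 the adjusted p was 0.0531 or 0.0545. With a trend on transcript GC content removed from each library, an alternative chosen after seeing the data, it was -0.184 (adjusted p = 0.00457).

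*Syn2* encodes synapsin II, which holds the reserve pool of vesicles, and its gene starts at 115134902 and ends at 115282626 on chromosome 6. It ran from 489.1 to 693.9 CPM in non-amyloid WT mice (median 556.0) and from 533.2 to 894.1 CPM in amyloid WT mice (median 657.2). The 2 values above all non-amyloid WT libraries were 863.1 CPM in replicate 5 and 894.1 CPM in replicate 12. The log2 fold change was 0.247 (SE 0.073, interval 0.099 to 0.395, adjusted p = 0.0229). Without replicate 5, 12 or non-amyloid WT replicate 28 alone it was 0.20, 0.195 or 0.225 (adjusted p = 0.0695, 0.0784 and 0.0542), and without both 5 and 12 it was 0.14 (adjusted p = 0.237). The summed hippocampal markers of the amyloid WT group ran from 212.5 to 448.1 CPM, against 201.6 to 250.3 CPM in the non-amyloid WT group, and their part in the level of *Syn2* was not tested. In Hom mice *Syn2* had a log2 fold change of 0.001 (interval -0.147 to 0.15, adjusted p = 0.994).

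**Figure D1:**
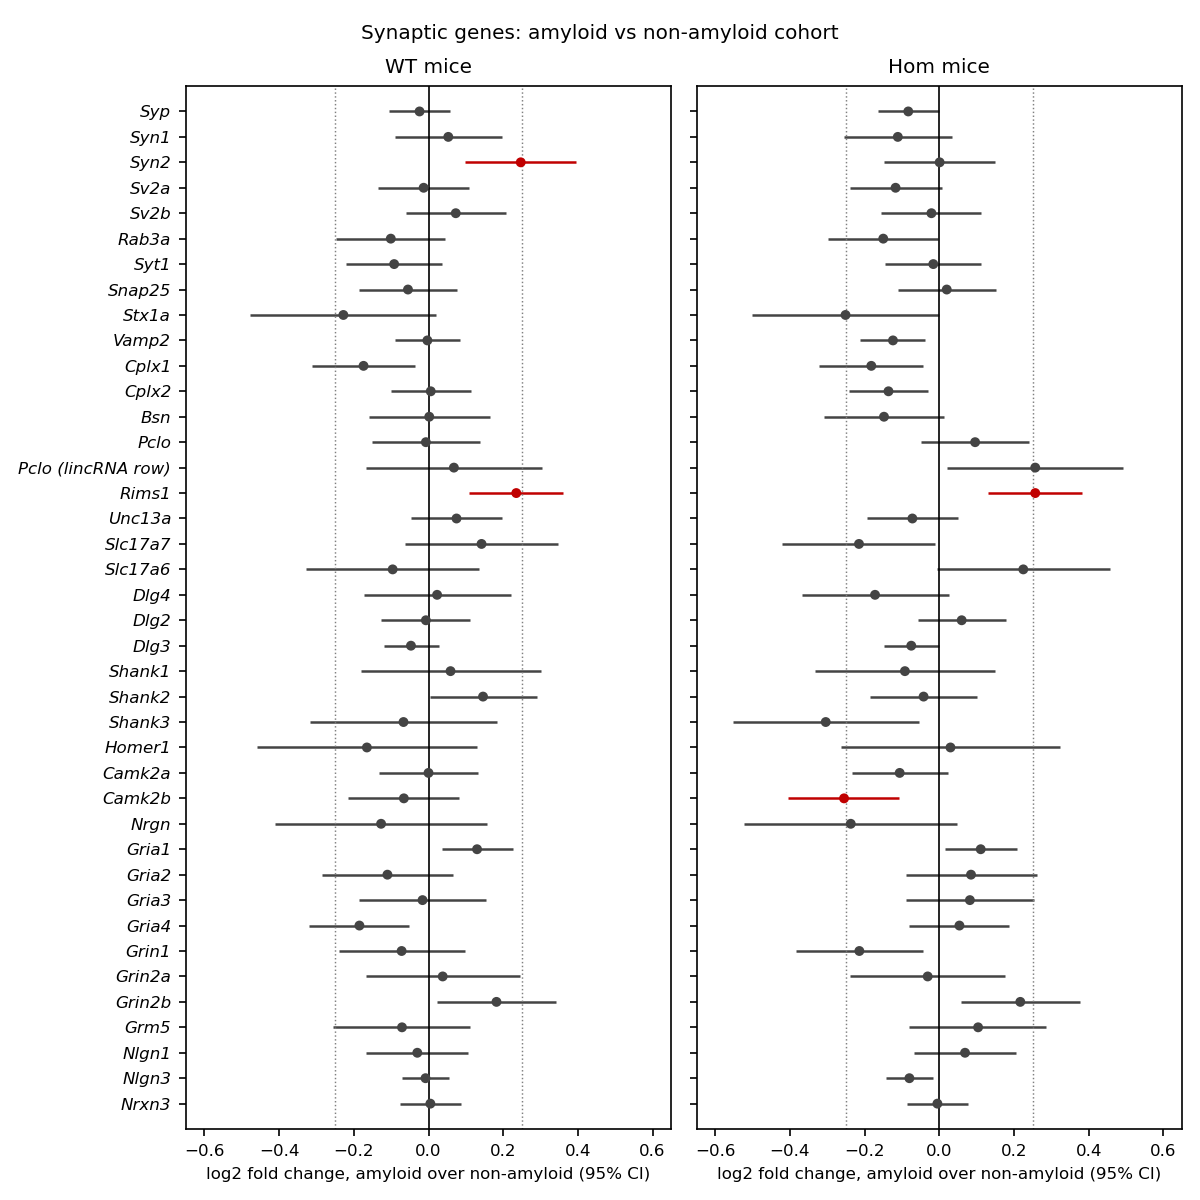
Log2 fold changes of the 40 synaptic rows between the amyloid and non-amyloid cohorts (amyloid over non-amyloid) in WT mice (left) and Hom mice (right), with 95% confidence intervals. Rows with an adjusted p under 0.05 are red and dotted lines mark the fold threshold of 0.25. *Rims1* is red in both panels, at 0.235 and 0.26, *Syn2* on the left at 0.247 and *Camk2b* on the right at -0.255.

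Among the vesicle proteins, which fill and cluster transmitter vesicles, the log2 fold changes between cohorts ran from -0.101 to 0.247 in WT mice and from -0.150 to 0.001 in Hom mice. *Syp*, the abundant vesicle membrane protein synaptophysin, had medians of 1299 and 1262 CPM in WT mice and 1372 and 1266 CPM in Hom mice without and with amyloid. Its fold change was -0.024 in WT mice (interval -0.105 to 0.057) and -0.083 in Hom mice (interval -0.164 to -0.002, adjusted p = 0.209). Exons of an opposite-strand gene cover 16.8% of the exonic bases of *Syp*, so that reads without strand could not be told apart there. The same holds for 13.5% of the bases of *Grin1*, 9.16% of *Nlgn1* and at most 4.12% (*Pclo*) of the other rows in the annotation. *Rab3a*, the small GTPase that helps vesicles dock, stood at -0.101 and -0.150. *Syn1*, the other synapsin, stood at 0.053 and -0.111. The vesicle glycoproteins *Sv2a* and *Sv2b*, which take part in release, stood at -0.013 and 0.073 in WT mice and at -0.117 and -0.021 in Hom mice.

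The fusion machinery joins vesicle and plasma membranes through SNARE proteins, with synaptotagmin as the calcium sensor and complexins as the clamp. *Cplx1* (complexin 1) stood at -0.174 in WT mice (adjusted p = 0.112) and -0.182 in Hom mice (adjusted p = 0.0976). *Stx1a* (syntaxin 1A) stood at -0.228 (interval -0.478 to 0.021) and -0.251 (interval -0.501 to -0.002, adjusted p = 0.218). *Cplx2* (complexin 2) stood at 0.006 and -0.136 (adjusted p = 0.11), with 6 of 10 amyloid Hom libraries below every non-amyloid Hom library. *Vamp2*, the vesicle SNARE, stood at -0.003 in WT mice and at -0.124 in Hom mice (adjusted p = 0.0696), and at -0.092 in Hom mice without replicate 19. *Snap25* and *Syt1*, a plasma membrane SNARE and the calcium sensor, stood between -0.092 and 0.020 in both genotypes. No member of this group passed the adjusted p.

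Of the active zone genes besides *Rims1*, *Bsn* and *Pclo* encode the giant scaffolds bassoon and piccolo, and *Unc13a* encodes the priming factor Munc13-1. Their protein-coding rows stood between -0.007 and 0.075 in WT mice and between -0.148 and 0.096 in Hom mice, with no adjusted p under 0.05. The *Pclo* lincRNA row, at 9.65 to 21.4 CPM in all libraries, stood at 0.068 and 0.26 (adjusted p = 0.179 in Hom mice). The vesicular glutamate transporters define excitatory terminals, *Slc17a7* (VGLUT1) mainly those of cortical neurons and *Slc17a6* (VGLUT2) mainly those of thalamic input. *Slc17a7* ran from 577.8 to 952.3 CPM in non-amyloid WT mice and from 604.7 to 1249 CPM in amyloid WT mice, where replicates 5 and 12 stood highest at 1120 and 1249 CPM. Its WT fold change was 0.14 (adjusted p = 0.473) and 0.008 without that pair. In Hom mice it ran from 737.8 to 961.4 CPM without amyloid and from 499.5 to 894.3 CPM with amyloid, with replicate 19 lowest. The Hom fold change was -0.215 (adjusted p = 0.197) and -0.164 without replicate 19. *Slc17a6* stood at -0.096 in WT mice and 0.225 in Hom mice, neither past the adjusted p.

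On the postsynaptic side, *Dlg4*, *Dlg2* and *Dlg3* encode PSD95, PSD93 and SAP102, which anchor receptors, the Shank genes encode the deeper scaffold layer, and *Homer1* links both to metabotropic receptors. *Dlg4* had medians of 417.8 and 437.2 CPM in WT mice and 447.9 and 394.9 CPM in Hom mice without and with amyloid. Its fold changes were 0.023 (interval -0.174 to 0.22) and -0.172 (interval -0.368 to 0.025, adjusted p = 0.289), and all 4 groups overlapped. *Shank3* had the lowest Hom fold change of all rows, -0.304 (interval -0.553 to -0.054, adjusted p = 0.13), and -0.374 (adjusted p = 0.0442) without amyloid Hom replicate 25, whose 119.2 CPM was the highest of its group. *Dlg3* stood at -0.047 and -0.075 (adjusted p = 0.211), with 7 of 10 amyloid Hom libraries below every non-amyloid Hom library. *Dlg2* stood at -0.007 and 0.06, *Shank1* at 0.059 and -0.092, *Shank2* at 0.146 and -0.042 and *Homer1* at -0.165 and 0.03, with no adjusted p under 0.05.

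The calcium signalling genes besides *Camk2b* had low estimates in Hom mice. *Camk2a*, the alpha kinase subunit, stood at 0.00 and -0.106. *Nrgn*, which encodes the calmodulin-binding protein neurogranin, stood at -0.127 and -0.237, and its intervals were among the widest (-0.522 to 0.048 in Hom mice).

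Of the AMPA receptor subunits, which carry fast transmission, *Gria1* stood at 0.13 in WT mice (adjusted p = 0.0762) and at 0.11 in Hom mice (adjusted p = 0.147). *Gria2*, the subunit that makes the channel impermeable to calcium, had medians of 1175 and 1164 CPM in WT mice and 1133 and 1254 CPM in Hom mice without and with amyloid. Its fold changes were -0.110 (interval -0.286 to 0.066) and 0.085 (interval -0.090 to 0.261). Replicates 5 and 12 held 746.0 and 773.5 CPM of *Gria2*, below the other 38 libraries, which started at 948.0 CPM, and without the pair the WT fold change was 0.001. *Gria4* stood at -0.185 in WT mice (adjusted p = 0.0735) with the same pair lowest of all libraries, and at -0.105 without it. *Gria3* stood at -0.016 and 0.082, and *Grm5*, the metabotropic receptor mGluR5, at -0.071 and 0.10. Of the NMDA receptor subunits, *Grin2b* stood at 0.18 and 0.22 (adjusted p = 0.163 and 0.0855) and the obligate subunit *Grin1* at -0.072 and -0.214 (adjusted p = 0.116 in Hom mice). *Grin2a* stood at 0.038 and -0.031. Without non-amyloid Hom replicate 6 *Grin2b* passed both thresholds in Hom mice (0.26, adjusted p = 0.0314). The adhesion genes *Nlgn1*, *Nlgn3* and *Nrxn3*, neuroligins and a neurexin, stood between -0.080 and 0.069 in both genotypes. *Nlgn3* was lowest at -0.080 in Hom mice (adjusted p = 0.113), with 6 of 10 amyloid libraries below every non-amyloid one.

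Other genes of the synapse were read from lists beside the members, with counts and medians and no test of the lists. Over all genes tested 7.95% were called between the cohorts in WT mice and 6.56% in Hom mice. Of 46 other presynaptic genes, 1 rose and 4 fell between the cohorts in WT mice, and 1 fell in Hom mice. In WT mice *Syt2*, a synaptotagmin of fast-releasing neurons, fell by 0.373 (adjusted p = 0.00197), the priming factor *Unc13c* fell by 0.463 (adjusted p = 0.00596) and the SNARE *Vamp1* fell by 0.278 (adjusted p = 0.0223). *Cadps2*, a vesicle priming factor, fell by 0.339 (adjusted p = 0.0377) and *Ppfia4*, a liprin, rose by 0.29 (adjusted p = 0.042). In Hom mice *Doc2a*, a calcium sensor of spontaneous release, fell by 0.351 (adjusted p = 0.0329). Of 50 other postsynaptic genes, the scaffold gene *Tanc1* rose by 0.40 (adjusted p = 0.00354) and *Nos1*, neuronal nitric oxide synthase, rose by 0.40 (adjusted p = 0.0347) in WT mice, and none was called in Hom mice. Of 48 other adhesion genes, *Tenm4* rose by 0.29 (adjusted p = 0.0102) and *Lrrtm2*, a postsynaptic partner of neurexins, fell by 0.252 (adjusted p = 0.0245) in WT mice. None of the 48 was called in Hom mice. Of 22 inhibitory synapse genes, the GABA receptor subunit *Gabra4* fell by 0.292 in WT mice (adjusted p = 0.0317). None of the 22 was called in Hom mice. Before adjustment a p under 0.05 was reached by 12 of 46 presynaptic, 12 of 50 postsynaptic, 17 of 48 adhesion and 5 of 22 inhibitory genes in WT mice, beside the 20.9% of all genes. In Hom mice the counts were 13, 11, 9 and 6, beside 22.6%. The medians of the presynaptic, postsynaptic, adhesion and inhibitory lists were 0.007, -0.036, -0.047 and -0.072 in WT mice and -0.053, -0.068, -0.026 and 0.008 in Hom mice.

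Cell type markers moved between the same groups, where 7.95% of all genes were called in WT mice and 6.56% in Hom mice. All 14 microglial markers were called higher in the amyloid cohort in WT mice and 12 of 14 in Hom mice. Their summed level was 474.5 to 643.5 CPM in non-amyloid WT mice, 503.3 to 598.7 CPM in non-amyloid Hom mice, 976.6 to 2256 CPM in amyloid WT mice and 751.0 to 1346 CPM in amyloid Hom mice. Astrocyte markers were called higher for 5 of 11 genes in WT mice and 3 of 11 in Hom mice. Of 20 neuronal markers outside the synapse, *Rbfox1*, which encodes a splicing factor, fell by 0.278 in WT mice (adjusted p = 0.0128), and none was called in Hom mice, where 6 had an unadjusted p under 0.05. Their summed level was 8281 to 9134, 8457 to 8979, 8270 to 9089 and 8381 to 9438 CPM in the non-amyloid WT, non-amyloid Hom, amyloid WT and amyloid Hom groups, and these ranges overlapped. Of 9 striatal markers all had a fold change below 0 in both genotypes (medians -0.369 and -0.345), with 2 called in WT mice and 1 in Hom mice. Of 15 excitatory cortical layer markers 13 were below 0 in WT mice and 11 in Hom mice (medians -0.125 and -0.080), with 1 called lower in each. Of 9 thalamus markers, 1 of which is also a member of the synaptic genes, 1 was called higher in WT mice and 3 in Hom mice (medians 0.11 and 0.20). The part of these shifts in the levels of the synaptic genes was not tested.

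The second question was whether Hom mice differed from WT mice within a cohort. None of the 40 rows was called in either cohort. In the amyloid cohort 0.0753% of all genes tested were called, and 1 of 40 rows had an unadjusted p under 0.05 where 9.67% of all genes did. The genes called in this cohort numbered 16 without a sex term, 251 with sex as a covariate and 303 with DESeq2, with no member among them. In the non-amyloid cohort 0.0329% of all genes were called, and 5 of 40 rows had an unadjusted p under 0.05 where 4.61% of all genes did. DESeq2 and limma-voom called 0 of 40 rows in each cohort too, with 0 and 0 rows at an unadjusted p under 0.05 in the amyloid and 5 and 7 in the non-amyloid cohort. The lowest adjusted p over the rows was 0.508 in the amyloid and 0.945 in the non-amyloid cohort. In the amyloid cohort the 95% interval lay within 0.25 log2 units of 0 for 25 rows and within 0.5 for 39. In the non-amyloid cohort it did so for 27 and 40 rows. The half-width of the interval had a median of 0.148 and 0.14 in the 2 cohorts.

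**Figure D2:**
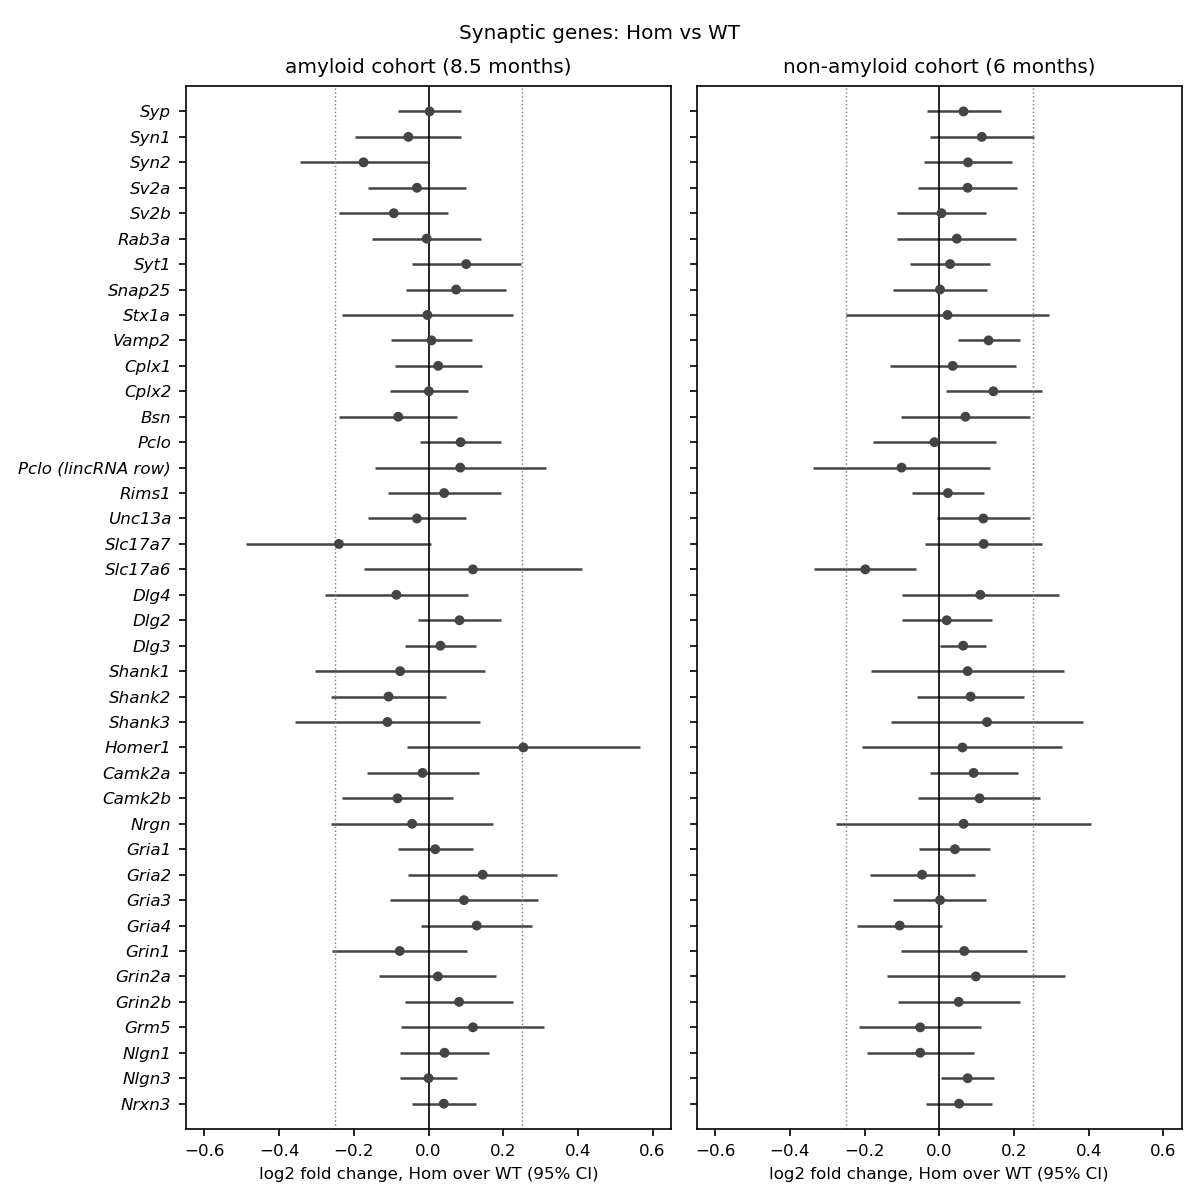
Log2 fold changes of the 40 synaptic rows between Hom and WT mice (Hom over WT) in the amyloid cohort (left) and the non-amyloid cohort (right), with 95% confidence intervals and dotted lines at 0.25. No row is red, the colour of an adjusted p under 0.05, and the estimates ran from -0.240 (*Slc17a7*) to 0.25 (*Homer1*) on the left and from -0.198 (*Slc17a6*) to 0.145 (*Cplx2*) on the right.

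In the amyloid cohort 23 rows had a fold change above 0 and 17 below, 57.5% above 0 where 50.4% of all genes were. This tally turned with the setting, to 15 above and 25 below with scaling to neuron markers, 18 and 22 with limma-voom and 30 and 10 with the GC trend removed. *Slc17a7* had a mean of 874.8 ± 204.3 CPM in WT mice and 740.6 ± 115.7 CPM in Hom mice (SD, n = 10 each). Its fold change was -0.240 (SE 0.12, interval -0.488 to 0.008, adjusted p = 0.529). It was -0.184 without replicate 19 and -0.107 without replicates 5 and 12. *Syn2*, with an unadjusted p of 0.0471, had a fold change of -0.174 (adjusted p = 0.508), which was -0.137 without replicate 19 and -0.061 without replicates 5 and 12. *Homer1* had the highest fold change, 0.25 (interval -0.057 to 0.57, adjusted p = 0.597), and ran from 169.6 to 336.4 CPM in WT mice and from 184.1 to 487.0 CPM in Hom mice. It was 0.16 without replicates 5 and 12 and 0.14 without amyloid Hom replicate 39, whose 487.0 CPM was the highest of all libraries. *Syp* stood at 0.003 (interval -0.082 to 0.088), *Dlg4* at -0.086 (interval -0.278 to 0.105) and *Gria2* at 0.145 (interval -0.054 to 0.345). All 4 AMPA receptor subunits had estimates above 0 (0.018 to 0.145) and all 3 calcium signalling genes below 0 (-0.083 to -0.016), none past the test. The AMPA estimates include WT replicates 5 and 12, the lowest pair of their group for 3 subunits. They held 746.0 and 773.5 CPM of *Gria2*, where the rest of the group started at 1092 CPM. For *Gria3* they held 284.0 and 266.8 CPM (rest from 379.6) and for *Gria4* 109.1 and 114.3 CPM (rest from 140.5).

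In the non-amyloid cohort 33 of 40 rows (82.5%) had a fold change above 0, where 49.0% of all genes did, and the median was 0.063 beside -0.003 for all genes. Under the other settings 30 to 33 rows were above 0, and 29 to 34 without 1 library. The median was 0.039 without non-amyloid WT replicate 15 and 0.04 with the GC trend removed. The 5 rows with an unadjusted p under 0.05 became 2 without non-amyloid Hom replicate 14 or non-amyloid WT replicate 15 and 8 without non-amyloid WT replicate 1. *Vamp2* ran from 844.8 to 970.2 CPM in WT mice (median 924.9) and from 937.3 to 1103 CPM in Hom mice (median 1018). Of the Hom libraries 8 of 10 lay above every WT library. Its fold change was 0.13 (SE 0.040, interval 0.050 to 0.215, unadjusted p = 0.00308), and its adjusted p was 0.945. *Slc17a6* ran from 34.3 to 43.8 CPM in WT mice and from 27.9 to 41.1 CPM in Hom mice, with 6 of 10 Hom libraries below every WT library. Its fold change was -0.198 (interval -0.335 to -0.061, unadjusted p = 0.00653, adjusted p = 0.965). *Cplx2* stood at 0.145 (unadjusted p = 0.0286), *Nlgn3* at 0.076 (0.0382) and *Dlg3* at 0.064 (0.0438), each with an adjusted p of 0.965. *Syp* stood at 0.065 (interval -0.033 to 0.16), *Dlg4* at 0.11 (interval -0.100 to 0.32) and *Gria2* at -0.046 (interval -0.186 to 0.095).

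The other synaptic lists gave no call between Hom and WT mice in either cohort. In the non-amyloid cohort 32 of 46 presynaptic, 43 of 50 postsynaptic and 30 of 48 adhesion genes had a fold change above 0, with medians of 0.057, 0.087 and 0.038. At an unadjusted p under 0.05, 5, 2 and 5 of them passed. In the amyloid cohort 16 of 46, 25 of 50 and 25 of 48 were above 0, with medians of -0.024, -0.001 and 0.011, and 4, 3 and 4 passed the unadjusted p. Of 22 inhibitory synapse genes 10 and 18 were above 0 in the non-amyloid and amyloid cohorts, and 2 and 0 passed the unadjusted p. Over all genes 49.0% and 50.4% were above 0 in the non-amyloid and amyloid cohorts, and 4.61% and 9.67% passed the unadjusted p. In the non-amyloid cohort 9 of 9 striatal, 7 of 9 hippocampal, 9 of 10 endothelial and pericyte and 10 of 15 cortical layer markers were above 0. Neuronal markers outside the synapse were above 0 for 10 of 20, thalamus markers for 3 of 9, astrocyte markers for 2 of 11 and oligodendrocyte markers for 0 of 10. The part of tissue content in the signs of the synaptic genes was not tested. Microglial markers had a median fold change of -0.568 in the amyloid cohort and of -0.020 in the non-amyloid cohort. In the amyloid cohort all 14 were below 0 and 13 had an unadjusted p under 0.05, with none called in the fit without a sex term.

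The effect of genotype was then compared between the cohorts in one fit of 40 libraries. No member and 0% of all genes were called for this interaction, with 10.3% of all genes and 3 of 40 rows at an unadjusted p under 0.05. DESeq2 called 38 genes and limma-voom 0, with no member in either and 4 and 7 rows at an unadjusted p under 0.05. The 3 rows were *Gria4* at 0.24 (interval 0.049 to 0.43, adjusted p = 0.392), *Slc17a7* at -0.357 (interval -0.646 to -0.068, adjusted p = 0.405) and *Syn2* at -0.246 (interval -0.456 to -0.036, adjusted p = 0.437). Without replicates 5 and 12 *Slc17a7* stood at -0.224 (adjusted p = 0.906), *Syn2* at -0.135 (adjusted p = 0.928) and *Gria4* at 0.16 (adjusted p = 0.881). The interaction and the cohort comparison in WT mice share the amyloid WT and non-amyloid WT libraries.

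**Figure D3:**
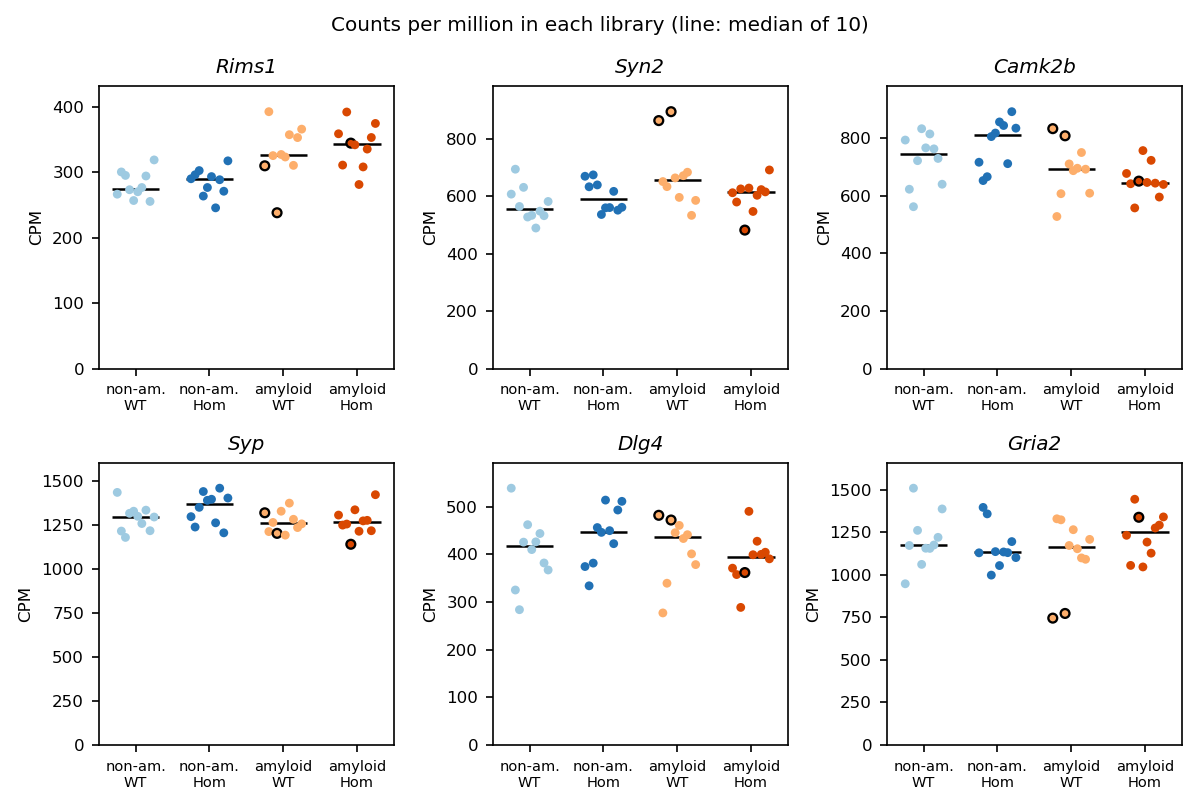
CPM of 6 synaptic genes in each of the 40 libraries by group, with a line at the median of 10 and an axis that starts at 0. Amyloid WT replicates 5 and 12 and amyloid Hom replicate 19 are outlined in black. *Rims1* has medians of 275.2 and 289.6 CPM in the non-amyloid groups and 326.6 and 343.5 CPM in the amyloid groups, and the outlined amyloid WT pair is highest for *Syn2* and lowest for *Gria2*.

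Sex was compared over all 40 libraries with group as a term. None of the 40 rows was called, where 0.358% of all genes were, and 3 rows had an unadjusted p under 0.05 beside 8.74% of all genes. DESeq2 and limma-voom called 0 rows as well, each with 3 at an unadjusted p under 0.05. *Homer1* ran from 169.6 to 315.0 CPM in 20 females (median 241.8) and from 184.1 to 487.0 CPM in 20 males (median 297.4). Its fold change, female over male, was -0.294 (SE 0.093, interval -0.483 to -0.105, adjusted p = 0.175). Within the 4 groups it was -0.280 and -0.320 in non-amyloid WT and Hom mice and -0.373 and -0.209 in amyloid WT and Hom mice, each with 5 mice per sex and none past the adjusted p. With the GC trend removed it was -0.312 (adjusted p = 0.0416). *Slc17a6* stood at -0.174 and *Gria1* at -0.073, with adjusted p of 0.497 and 0.474.

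Levels were compared between members per kilobase of exons as given in the count table. *Snap25* was highest at 478.1 ± 47.1 CPM per kb (SD over 40 libraries), above *Camk2a* at 377.7 ± 37.4 in 38 of 40 libraries. *Camk2a* stood above *Cplx2* (284.8 ± 25.2) in all 40. *Cplx2*, *Slc17a7*, *Syt1*, *Cplx1*, *Syp* and *Vamp2* followed between 284.8 and 248.2 CPM per kb, and neighbours in this stretch did not differ beyond their spread, each standing above the next in 20 to 28 of 40 libraries. *Nrgn* stood at 228.4 ± 52.7 and above *Rab3a* (148.6 ± 17.3) in 39 of 40. Of the 4 AMPA receptor subunits *Gria1* (79.4 ± 6.42) and *Gria2* (75.9 ± 10.2) did not differ beyond their spread, and in non-amyloid WT mice their order was reversed (75.1 and 77.5). *Gria3* stood at 41.3 and *Gria4* at 25.2. Of the NMDA receptor subunits *Grin1* stood at 37.3, *Grin2b* at 24.5 and *Grin2a* lowest of all rows at 5.89 CPM per kb. *Slc17a7* RNA exceeded *Slc17a6* RNA, 278.0 ± 47.5 against 8.64 ± 1.6 CPM per kb. These are RNA levels of cortical tissue and give no ratio of the proteins or of the terminals. The *Pclo* lincRNA row stood at 7.37 and the protein-coding row at 20.6 CPM per kb.

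**Figure D4:**
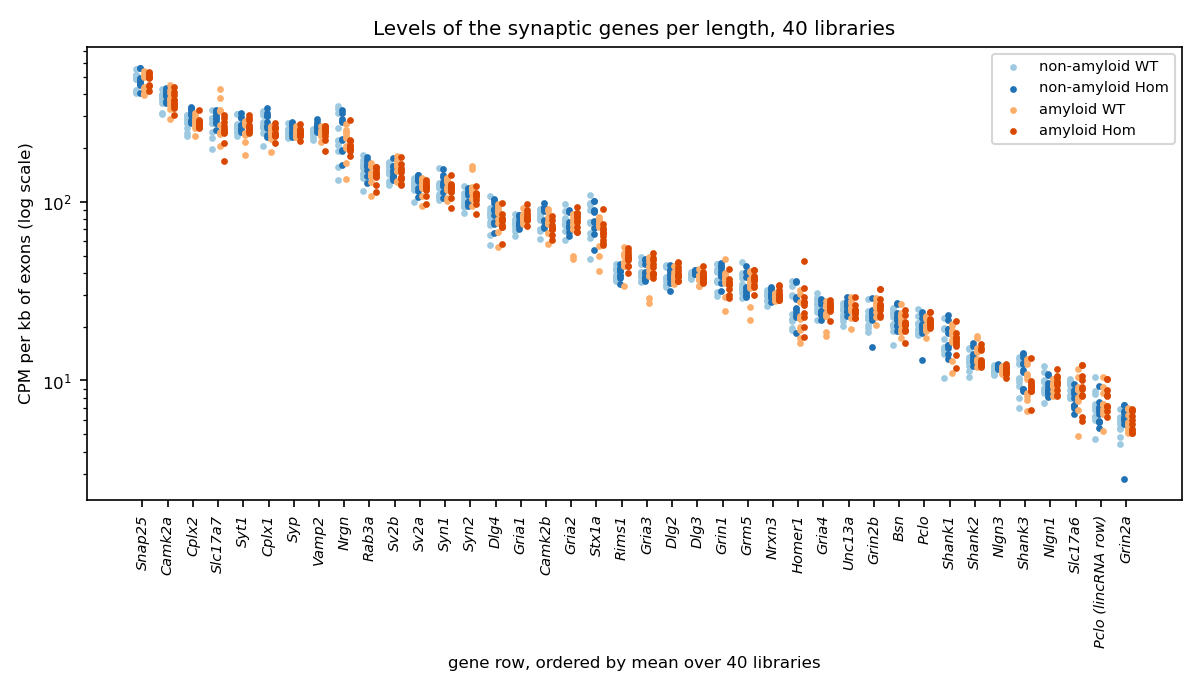
CPM per kb of exons for the 40 synaptic rows in 40 libraries, ordered by mean on a log axis, with points coloured by group. The rows run from 478.1 (*Snap25*) to 5.89 CPM per kb (*Grin2a*), and the 4 groups of each row overlap.

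Within groups, the members did not vary as 1 block. After each library's log2 CPM was taken relative to its group mean, the first principal component held 51.1% of the variance over the 40 rows and the second 11.8%. *Gria2*, *Grm5*, *Gria3*, *Slc17a6* and *Homer1* lay at one end, and *Nrgn*, *Shank3*, *Shank1*, *Stx1a* and *Dlg4* at the other. The within-group SD on the log2 scale ran from 0.057 (*Nlgn3*) to 0.339 (*Homer1*), with a median of 0.165 beside 0.188 for the other genes above 1 CPM.

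The order of the members on this component followed the GC content of their longest transcript, from 36.8% in *Gria2* to 62.4% in *Shank3*. Over the 39 rows with a transcript in the annotation Pearson's r was 0.86 and Spearman's rho 0.88, given as a description across genes that share libraries. All 10 of the most GC-poor rows had a weight below 0, and 9 of the 10 most GC-rich rows had one above 0, with *Syn1* as the exception. Among the rows in between, *Dlg4* departed from this order with a weight of 0.246 at 46.8% GC, and *Syp* had 0.045 at 45.4%. The mean of these 10 GC-rich rows minus that of the 10 GC-poor rows, relative to the group mean, ran from -0.650 to 0.63 over the 40 libraries. The same difference over 14997 other genes, between those above 54.3% and those below 44.8% GC, ran from -0.677 to 0.48 and had the same sign in 36 of 40 libraries. The mean log2 CPM of the GC-rich rows minus that of the GC-poor rows, compared between groups only, was 0.24 ± 0.338 in non-amyloid WT, 0.36 ± 0.279 in non-amyloid Hom, 0.29 ± 0.366 in amyloid WT and 0.11 ± 0.226 in amyloid Hom mice (SD, n = 10), and all 4 groups overlapped. Its part in the fold changes of single members was not tested beyond the fits with the GC trend removed, which called no row between Hom and WT mice and none between the cohorts. In those fits 7 rows in WT mice and 2 in Hom mice passed the adjusted p between the cohorts, with folds short of the threshold.

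**Figure D5:**
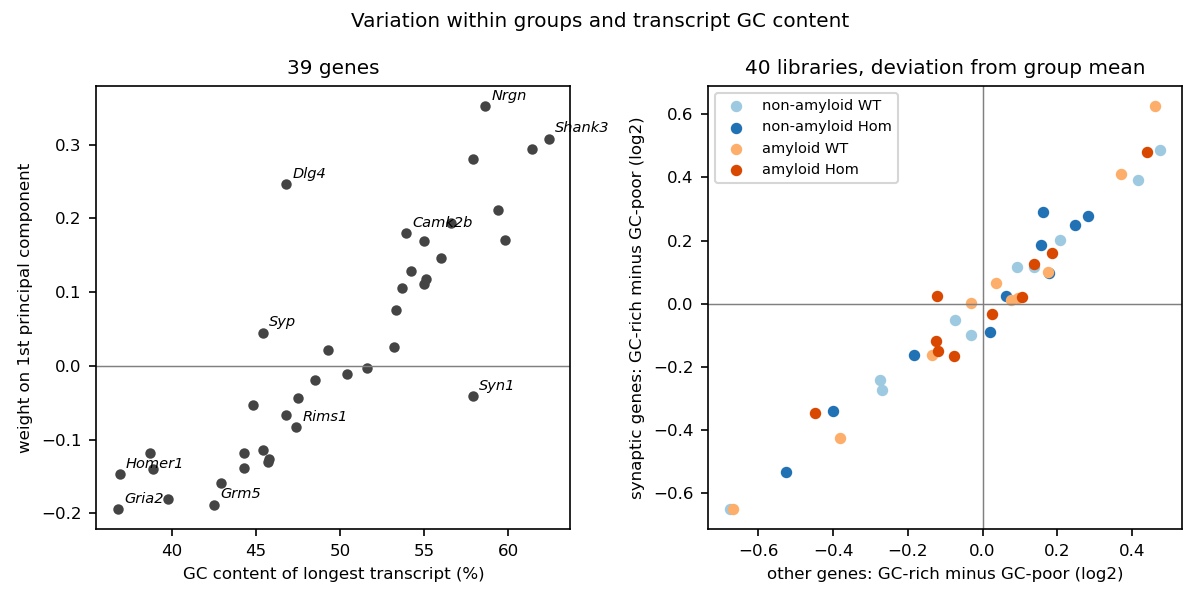
Left, weight of each of 39 synaptic rows on the first principal component of within-group log2 CPM against the GC content of its longest transcript (%). Right, for each of 40 libraries, the mean of 10 GC-rich minus 10 GC-poor synaptic rows against the same difference over 14997 other genes, both as log2 deviation from the group mean. Weights rise from *Gria2* (36.8% GC) to *Nrgn* and *Shank3* (58.6% and 62.4%), and the libraries lie along a diagonal from -0.650 to 0.63.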

How the data were processed

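Cortical poly-A RNA of 40 mice was sequenced. The deposited values are raw read counts per gene, whole numbers with no normalization by the authors. The study's methods name TopHat, Bowtie and featureCounts within MAP-RSeq on mm10, while the submitters' processing notes name STAR 2.5.2b, featureCounts 1.5.1 and edgeR, and it is not settled which made the table. The strand setting is not given in the sources used here. The study left out 1 amyloid Hom female, unnamed, over its gene counts and a strand check. Amyloid Hom replicate 19, a female, is the library that stands apart on strand here, and whether it is the same one is not stated. All 40 libraries were kept, and some values without replicate 19 are given.

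Counts were fitted with edgeR 4.0.16 in R 4.3.3 (TMM, quasi-likelihood test, Benjamini-Hochberg over 21253 genes). Hom and WT mice were fitted within each cohort of 20, and the other contrasts over 40 libraries. DESeq2 1.42.0, limma 3.58.1 (voom), other scalings, no filter, sex as a covariate and leaving out each library were alternatives. The edgeR fit of Hom and WT mice in the amyloid cohort was also run on simulated counts. Confidence intervals are at 95%. GC content came from GENCODE vM21 and promoters from RefSeq, which held 28 of the 39 members. The members, the other lists and the marker lists were chosen with earlier results of these data known. All members are named, and of other lists the called genes, at most 5 for each list and comparison, beside *Trem2* and the genes of the transgenes, of which not all are reported here. Each p-value sets a difference against the spread between these libraries.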

Additional observations from a re-analysis of the deposited data

Results flagged for a closer look

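In 9 of 160 groups of 10 (40 rows in 4 groups) 1 library stood far from the rest, and chance alone gives about 1 in 20. Of these 4 fell on amyloid Hom replicate 25, a male. It stood high for the GC-rich genes *Stx1a* (243.1 CPM, next 199.8), *Shank3* (119.2 CPM, next 88.2) and *Nrgn* (414.9 CPM, next 321.4). It also stood high for *Cplx2* (1612 CPM, next 1406). Non-amyloid Hom replicate 11, a female, stood low for *Pclo* (249.9 CPM, next 355.3), *Grin2a* (14.8 CPM, next 30.2) and *Grin2b* (379.7 CPM, next 540.8). *Homer1* stood high in amyloid Hom replicate 39 (487.0 CPM, next 343.8) and *Syn1* in non-amyloid WT replicate 7 (509.6 CPM, next 421.5). Without replicate 25 the cohort difference of *Shank3* in Hom mice passed both thresholds (-0.374, adjusted p = 0.0442), and without replicate 11 that of *Rims1* was 0.246, under the fold threshold.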

How the results depend on the processing

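No member was called between Hom and WT mice of either cohort, or for the interaction, under any alternative run, each left-out library included. Between the cohorts in Hom mice 2 members were called, and 1 under RLE size factors, scaling to neuron markers, no filter, DESeq2 or a fit of the 20 Hom libraries, where *Rims1* lost its call. With the GC trend removed 0 were called, and without 1 library 0 to 3. In WT mice 0 were called, and 1 with library size alone, with limma-voom or without amyloid WT replicates 5 and 12, and 2 with scaling to neuron markers or with no fold threshold. Without 1 library the WT count was 0 to 2, as *Syn2* or *Rims1* crossed the fold threshold. For sex the count was 0, and 1 with the GC trend removed (*Homer1*). The cause of these moves was not tested. Counts over all genes moved more. Between Hom and WT mice of the amyloid cohort 16 genes were called, between 7 and 612 under the other settings and 6 to 204 without 1 library, the most without amyloid WT replicate 13. The GC trend and the removal of replicates 5 and 12 were chosen after seeing the data. No paired analysis was run. The study describes littermate cohorts, but the labels used here name no litters or pairs, so litter was not modelled. With 10 mice a group, the half-width of the 95% interval between genotypes ran from 0.075 to 0.31 log2 units in the amyloid and from 0.062 to 0.34 in the non-amyloid cohort, which limits what can be said of rows that were not called.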
